A study of Mus musculus with 9 samples.

Results

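The 9 genes described here are Pan3, Hipk3, Tab2, Pde3b, Fnip1, Marchf7, Med13, Klf3 and Irf2bp2. They encode regulators of mRNA decay, signalling, ubiquitination and transcription, and they were picked from the 21939 genes of the count table because their counts were lower in old than in young long-term haematopoietic stem cells (LT-HSCs). RNA was sequenced from LT-HSCs of C57BL/6 mouse bone marrow, sorted as negative for lineage markers, CD34 and Flt3 and positive for Sca1 and cKit. There were 3 groups of 3 libraries. The aged+Ri group held cells of mice older than 80 weeks that were given 100 µM Rhosin, a compound that inhibits the GTPase RhoA. The aged group held cells of mice of that age without the inhibitor, and the young group held cells of mice aged 10 to 16 weeks without it. Cells of all 3 groups spent 16 h at 37 °C in Hanks' balanced salt solution with 10% serum, 3% oxygen and 5% carbon dioxide before lysis, so no group stands for freshly isolated cells. Libraries were made from full-length cDNA amplified by template switching (SMART-Seq v4) and cut by transposition (Nextera XT). The labels call the libraries biological replicates but do not give the number of mice in each, so p-values measure the spread between these samples.

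LT-HSCs are the rare marrow cells that can renew themselves and rebuild all blood lineages, and in old animals they are known to be more numerous, less potent and biased towards myeloid and platelet output. RhoA switches between an active and an inactive form and, when active, drives actomyosin contraction. The 9 genes belong to no single pathway. PAN3 brings the PAN2 nuclease to the poly(A) tail, the first step of the decay of many mRNAs. HIPK3 is a protein kinase, TAB2 links ubiquitin chains to the kinase TAK1, PDE3B breaks down cyclic nucleotides and FNIP1 is the partner of folliculin in nutrient and AMPK signalling. MARCHF7 is a RING-type ubiquitin ligase. MED13 joins the Mediator coactivator to its kinase module, KLF3 is a zinc-finger repressor that recruits CtBP, and IRF2BP2 is a corepressor first described as a partner of IRF2.

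On GRCm38, Pan3 spans chr5:147430161-147548502 (plus strand), Hipk3 chr2:104426481-104494446 (minus), Tab2 chr10:7905653-7956230 (minus), Pde3b chr7:114415281-114539251 (plus) and Fnip1 chr11:54438199-54518235 (plus). Marchf7, listed as March7 in the GENCODE annotation of that build, spans chr2:60209887-60250676 (plus). Med13 lies at chr11:86267033-86357602 (minus), Klf3 at chr5:64803388-64832901 (plus) and Irf2bp2 at chr8:126588296-126593986 (minus). All 9 are annotated as protein coding. Exons of 4 of them overlap exons of another annotated transcript, none of which is a row of the count table. Hipk3 shares 80 bp with Mir1902 on the same strand, while Med13 shares 800 bp with Brip1os, Klf3 404 bp with Gm20033 and Irf2bp2 1039 bp with Gm26759 on the opposite strand. Whether the authors counted by strand is not given in the sources used here. Reads of these stretches could come from either gene and the levels of these 4 genes are uncertain to that extent. The deposited estimates for Pan3, Tab2 and Klf3 were not whole numbers (within 0.005) in 8 of the 9 libraries, which can come from reads shared with other genes.

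The promoters of the genes were set side by side, since all were picked for a lower level in old cells. RefSeq (GRCm38.p6) start sites gave 9 windows of 250 bases upstream for 8 of the 9 genes, Tab2 having a pair of start sites and Pde3b no entry in the table used. Median G+C content of these windows was 74.0%, against 60.4% in 6475 windows of genes with a mean of at least 20 CPM (read counts scaled to the size of each library) and 52.4% in all 32851 windows. The median ratio of observed to expected CpG was 0.957 in the 9 windows of these 8 genes, 0.762 in those of genes above 20 CPM and 0.374 in all windows. The 150 bases before the start of 3 of the genes are printed 5′ to 3′ on the strand of the gene: Irf2bp2, one of the genes below its young level past the threshold in treated cells, from chr8:126593987-126594136 (minus), Klf3, which had the highest fitted change with the inhibitor, from chr5:64803371-64803520 (plus), and Fnip1, the one with matches to 2 of the motifs searched, from chr11:54438029-54438178 (plus). The RefSeq start of Klf3 lies downstream of the start of its GENCODE span, chr5:64803388-64832901. Part of the printed Klf3 stretch is therefore inside that span. Capitals mark each CpG in Irf2bp2 and Klf3, and the motif matches in Fnip1.
Irf2bp2: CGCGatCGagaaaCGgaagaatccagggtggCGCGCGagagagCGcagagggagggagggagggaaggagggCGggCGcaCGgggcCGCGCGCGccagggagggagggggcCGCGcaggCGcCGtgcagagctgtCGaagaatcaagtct
Klf3: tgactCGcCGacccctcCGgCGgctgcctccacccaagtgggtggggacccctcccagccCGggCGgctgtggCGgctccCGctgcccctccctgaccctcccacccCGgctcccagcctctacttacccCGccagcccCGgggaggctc
Fnip1: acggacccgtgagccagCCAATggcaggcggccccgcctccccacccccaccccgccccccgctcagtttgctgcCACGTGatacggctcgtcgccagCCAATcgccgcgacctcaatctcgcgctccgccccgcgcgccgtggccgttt
The Irf2bp2 stretch holds 20 CpG, that of Klf3 11 and that of Fnip1 21. Fnip1 carries 2 copies of CCAAT and, beginning 75 bases before its start, 1 of CACGTG, the E-box read by TFEB, USF and MYC family factors. Searched on both strands, CACGTG was in the window of 1 of the 8 genes, Fnip1, and in 6.02% of all windows, and CCAAT was in those of Fnip1 and Tab2 and in 33.8% of all windows. The other motifs searched were in 0 of these windows. Among all windows, the CRE-type motif TGACGT was found in 6.47%, the ETS-type motif CCGGAAG in 6.91% and the NRF1-type motif GCGCATG in 3.24%. The YY1-type motif AAGATGG was found in 4.49% and the KLF-type motif GGGTGTG in 6.93% of them. These searches describe letters in 250-base windows and do not identify bound sites.

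Total counts per library were between 34358101 and 72503142, and raw counts of the 9 genes between 886 and 13422, so all 9 passed the low-count filter that left 15127 genes. Levels are given as CPM normalised by the trimmed mean of M-values (TMM). The young libraries stood apart from the rest. They had a count for 20308 to 21272 genes, against 15387 to 16697 in aged+Ri and 15333 to 18288 in aged libraries, and 4.14% to 4.68% of their counts were mitochondrially encoded, against 1.57% to 2.56% in aged+Ri and 2.57% to 3.54% in aged libraries. The predicted satellite-like gene Gm10800 took 1.35% to 3.68% of the counts of the young libraries, and at most 0.0782% in aged+Ri and 0.23% in aged libraries. Iglc2, an immunoglobulin gene, took 1.23% of the counts of young 1. Ddx3y, a Y-linked gene, was at 2577 and 6400 counts in young 2 and young 3 and at most 1 elsewhere. With Y-linked RNA high in those young libraries alone, the sex of the mice cannot be fully told apart from their age. The part of these features in the levels of the 9 genes was not tested. Rhosin is known to bind the RhoA protein, so the Rhoa mRNA is no check of the treatment. It averaged 352 ± 87.7 CPM in aged+Ri and 181 ± 23.6 CPM in aged libraries (SD, n = 3 each; edgeR adjusted p = 0.434).

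**Figure D1:**
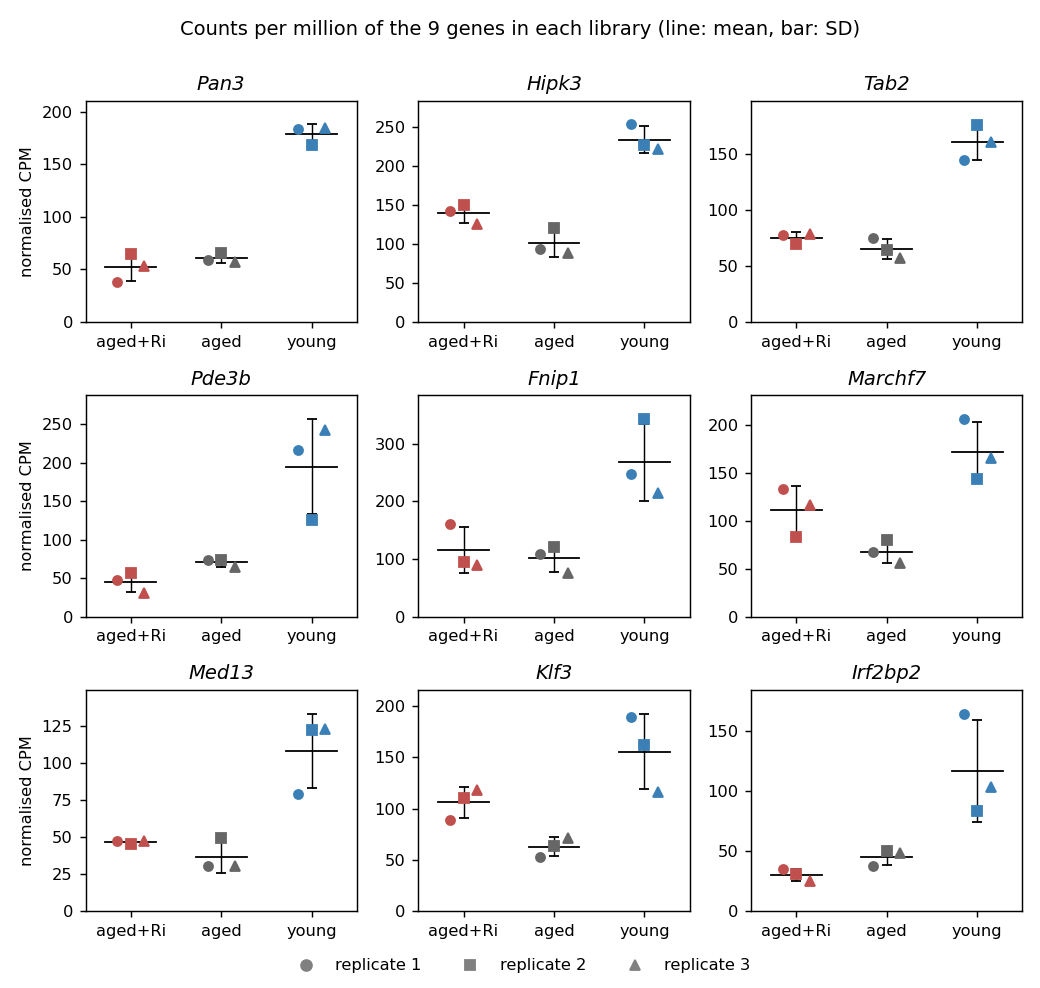
Normalised CPM (vertical axis from 0) of each of the 9 genes in the 3 aged+Ri, 3 aged and 3 young libraries. Each point is a library, shaped by replicate number, with the mean (line) and SD (bar) of its group. The 3 young libraries lie above the 3 aged ones in every panel, as the choice of the genes fixed, and above the 3 aged+Ri libraries in all panels but that of Klf3.

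Pan3, which encodes the poly(A)-tail adaptor, was at 38.2, 65.0 and 52.9 CPM in the aged+Ri libraries, 59.3, 65.8 and 56.5 CPM in the aged libraries and 183, 169 and 185 CPM in the young libraries. The inhibitor and aged groups overlapped, and the young libraries were nearly level with one another. Aged+Ri minus aged was -0.22 ± 0.32 on the log2 scale (SE; edgeR quasi-likelihood, Benjamini-Hochberg adjusted p = 0.93). Against young cells Pan3 was 3.44-fold lower in aged+Ri, a log2 change of -1.78 ± 0.33 (edgeR adjusted p = 0.0231). Levels per kilobase use the merged exons of all annotated transcripts of a gene. Per kilobase of exon, Pan3 was at 3.48 ± 0.898, 4.05 ± 0.317 and 11.96 ± 0.594 CPM in aged+Ri, aged and young cells. Its partner Pan2, the nuclease, was at 3.31 ± 1.47, 3.18 ± 0.946 and 3.01 ± 1.00 CPM per kilobase in the same order (SD, n = 3 each), so the lower Pan3 level stood beside a Pan2 level whose groups overlapped.

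Of the signalling genes, Hipk3 was at 142, 149 and 126 CPM in aged+Ri, 93.5, 121 and 88.7 CPM in aged and 253, 227 and 222 CPM in young libraries. Every aged+Ri library was above every aged one and below every young one. Picking genes low in aged and high in young cells favours such a place between them. Its log2 change with the inhibitor was 0.46 ± 0.28 (edgeR adjusted p = 0.675), and that of aged+Ri against young was -0.75 ± 0.28 (edgeR adjusted p = 0.143). Neither passed edgeR's threshold of 0.05. Hipk1, a related kinase, was at 12.6 ± 5.21, 16.2 ± 2.09 and 24.6 ± 5.34 CPM per kilobase in aged+Ri, aged and young cells, and Hipk2 at 1.01 ± 0.372, 0.765 ± 0.267 and 1.28 ± 1.08 in that order. Hipk3 was at 17.4 ± 1.53, 12.6 ± 2.16 and 29.3 ± 2.11 CPM per kilobase.

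Tab2 was at 78.0, 69.7 and 78.3 CPM in aged+Ri, 74.9, 63.8 and 57.5 CPM in aged and 144, 176 and 160.4 CPM in young libraries. Its aged+Ri and aged values overlapped, with a log2 change of 0.20 ± 0.30 (edgeR adjusted p = 0.932). Against young cells the change was -1.09 ± 0.30 (edgeR adjusted p = 0.0809), short of edgeR's threshold although the groups did not overlap. With a stricter filter on low counts, the change was -1.19 and Tab2 was called lower (edgeR adjusted p = 0.0499). Among the TAK1 adaptors Tab2 had the highest level per kilobase of exon, 12.3 ± 0.801 CPM in aged+Ri, 10.7 ± 1.44 in aged and 26.1 ± 2.61 in young cells. Tab1 and Tab3 had means between 0.901 and 2.18 CPM per kilobase in the 3 groups, and Map3k7, which encodes TAK1, between 4.49 and 7.19.

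Pde3b was at 48.2, 56.9 and 30.6 CPM in aged+Ri, 73.5, 74.0 and 63.8 CPM in aged and 216, 125 and 243 CPM in young libraries. Every aged+Ri library was below every aged one, and the young libraries, though all higher, were spread widely. The log2 change with the inhibitor, -0.64 ± 0.36, did not pass the test (edgeR adjusted p = 0.634). Aged+Ri against young gave the greatest difference among the 9 genes, -2.11 ± 0.37 on the log2 scale or 4.30-fold lower (edgeR adjusted p = 0.021). Pde3a, the other gene of this phosphodiesterase family, was nearly silent at 0.0304 ± 0.0489, 0.318 ± 0.347 and 0.0587 ± 0.0334 CPM per kilobase in aged+Ri, aged and young cells, against 4.96 ± 1.47, 7.73 ± 0.629 and 21.4 ± 6.78 for Pde3b.

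Fnip1 was at 161, 94.9 and 90.1 CPM in aged+Ri, 108, 121 and 75.5 CPM in aged and 247, 342 and 214 CPM in young libraries. Aged+Ri 1 was well above the other aged+Ri libraries, and the group overlapped the aged one. The log2 change with the inhibitor was 0.18 ± 0.34 (edgeR adjusted p = 0.95), and -0.14 without aged+Ri 1. Against young cells it was -1.22 ± 0.35 (edgeR adjusted p = 0.0858). Flcn, the gene of folliculin, was at 15.6 ± 2.58, 18.2 ± 6.54 and 22.0 ± 12.5 CPM per kilobase in aged+Ri, aged and young cells, and Fnip1 at 16.2 ± 5.56, 14.3 ± 3.30 and 37.6 ± 9.38. The second folliculin partner, Fnip2, had means between 0.840 and 1.70 CPM per kilobase.

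Marchf7, the ubiquitin ligase gene, was at 133, 83.3 and 116 CPM in aged+Ri, 67.2, 79.5 and 55.8 CPM in aged and 206, 144 and 166 CPM in young libraries. The groups formed 3 steps without overlap, although aged+Ri 2 was close to aged 2. The step from aged to young follows from the choice of the genes, which also favours a place between them for aged+Ri. With the inhibitor the log2 change was 0.72 ± 0.32, 1.64-fold (unadjusted p = 0.0441, edgeR adjusted p = 0.526), and against young cells it was -0.63 ± 0.32 (edgeR adjusted p = 0.254). Neither passed edgeR's threshold.

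Of the transcription genes, Med13 was at 47.4, 45.5 and 47.4 CPM in aged+Ri, 30.9, 49.5 and 30.5 CPM in aged and 79.4, 122 and 123 CPM in young libraries. The aged+Ri libraries were almost equal and lay between the lowest and highest aged ones. Its log2 change with the inhibitor was 0.34 ± 0.37 (edgeR adjusted p = 0.875) and against young cells -1.21 ± 0.37 (edgeR adjusted p = 0.0965). Med13l, the paralog that takes the same place in Mediator, was at 4.16 ± 0.624, 4.80 ± 0.575 and 8.32 ± 2.91 CPM per kilobase in aged+Ri, aged and young cells, close to 4.32 ± 0.103, 3.41 ± 1.00 and 9.997 ± 2.32 for Med13. The reads that such paralogs could share were not separable here. Ccnc, the cyclin of the kinase module, had means between 9.80 and 11.7 CPM per kilobase, and its kinase gene Cdk8 was at 2.01 ± 1.16, 1.37 ± 0.229 and 3.23 ± 0.235 in that group order.

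Klf3 was at 89.2, 111 and 118 CPM in aged+Ri, 53.2, 63.2 and 71.8 CPM in aged and 189, 162 and 116 CPM in young libraries. All aged+Ri libraries were above all aged ones, and aged+Ri 3 was above young 3, which made Klf3 the one gene of the 9 whose aged+Ri and young groups overlapped. The log2 change with the inhibitor was 0.76 ± 0.32, 1.69-fold and the greatest of the 9 (unadjusted p = 0.034, edgeR adjusted p = 0.497), and against young cells it was -0.55 ± 0.32 (edgeR adjusted p = 0.312). Klf3 also belongs to the Krüppel-like factors. Its CtBP-recruiting relatives were much lower per kilobase, Klf8 with group means between 0.754 and 1.43 CPM and Klf12 between 0.217 and 1.02, against 9.43 ± 1.34 in aged+Ri, 5.58 ± 0.831 in aged and 13.8 ± 3.27 in young cells for Klf3.

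Irf2bp2 was at 34.8, 31.2 and 25.0 CPM in aged+Ri, 37.3, 49.9 and 48.5 CPM in aged and 164, 83.4 and 103 CPM in young libraries. The aged+Ri libraries were all below the aged ones, and young 1 was far above the other young libraries. With the inhibitor the log2 change was -0.58 ± 0.38 (edgeR adjusted p = 0.71). Against young cells Irf2bp2 was 3.85-fold lower in aged+Ri, a log2 change of -1.95 ± 0.39 (edgeR adjusted p = 0.031). Its relatives Irf2bp1 and Irf2bpl were at 5.57 ± 2.23 and 6.30 ± 2.79 CPM per kilobase in aged+Ri, 4.25 ± 4.21 and 5.48 ± 1.20 in aged, and 4.49 ± 3.04 and 3.87 ± 2.99 in young cells. Irf2bp2 stood near them in aged+Ri, at 5.97 ± 0.975, and above them in aged cells at 8.91 ± 1.36 and in young cells at 23.0 ± 8.31.

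Read over all 9 genes, aged against young is the comparison that chose them, so its values are a description. The log2 changes were -1.56 for Pan3, -1.55 for Med13, -1.47 for Pde3b, -1.40 for Fnip1, -1.37 for Irf2bp2, -1.35 for Marchf7, -1.31 for Klf3, -1.29 for Tab2 and -1.21 for Hipk3. All 9 had every aged library below every young one, which held for 16.1% of the genes tested. Within sequencing batch 2, with 1 library a group, these changes were between -1.50 and -0.74, and within batch 3, also with 1 a group, between -2.02 and -0.69. In bulk RNA, a lower level cannot be told apart as less RNA per cell or as fewer cells of a type that expresses the gene.

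The comparison of aged+Ri with aged cells asks whether RhoA inhibition changes these transcripts. It shares the aged libraries, which were picked low, with the comparison that chose the genes. The values, counts and p-values of the 9 genes in it therefore lean towards a higher level with the inhibitor. The 9 genes went both ways: the aged+Ri mean was above the aged mean for Hipk3, Tab2, Marchf7, Med13, Klf3 and Fnip1, and below it for Pan3, Pde3b and Irf2bp2. By edgeR's quasi-likelihood test 0 of the 9 changed, and so did 0 of the 15127 genes (0.0%). DESeq2, limma-voom and edgeR's newer method likewise called 0 of the 9, and 321, 55 and 5 of all genes in that order. At an unadjusted p under 0.05 there were 2 of the 9, Klf3 and Marchf7, both higher, beside 4.24% of all genes higher and 4.89% lower. Hipk3, Marchf7 and Klf3 were higher in all aged+Ri than in all aged libraries, 3 of 9 against 7.87% of all genes. Pde3b and Irf2bp2 were lower in all, 2 of 9 against 8.66% of all genes. The median log2 change was 0.20 over the 9 genes and -0.06 over all genes.

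**Figure D2:**
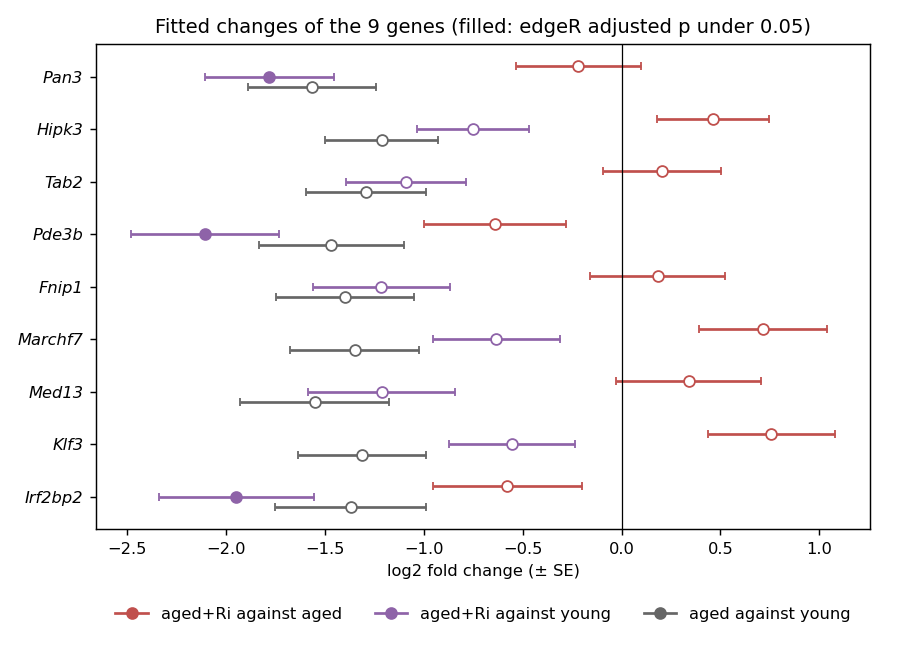
Fitted log2 fold changes with standard errors (horizontal axis) of the 9 genes for aged+Ri against aged, aged+Ri against young and aged against young. Filled points have an edgeR adjusted p under 0.05: Pan3, Pde3b and Irf2bp2 in aged+Ri against young. Aged against young chose the genes, so its points are a description. Aged+Ri against young shares the young libraries, picked high, and leans towards lower levels. Aged+Ri against aged shares the aged libraries, picked low, and leans towards higher levels. With the inhibitor 6 genes lie to the right of 0 and 3 to the left, between -0.64 and 0.76.

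The inhibitor values were also split by sequencing batch, using the same libraries. Batch 1 contained replicate 1 of both groups, and batch 2 contained aged 2 together with aged+Ri 2 and aged+Ri 3. In batch 1 and batch 2 the log2 differences were 0.75 and 0.86 for Klf3, 0.98 and 0.31 for Marchf7, and 0.61 and 0.18 for Hipk3. They were -0.61 and -0.83 for Pde3b, -0.10 and -0.84 for Irf2bp2, and -0.63 and -0.17 for Pan3 in the same order. These 6 genes, and Tab2 at 0.06 and 0.21, had the same sign in both batches. For Klf3, Marchf7, Hipk3, Pde3b and Irf2bp2 the shared sign was fixed in advance, since their aged+Ri and aged libraries did not overlap. Med13 at 0.62 and -0.09 and Fnip1 at 0.57 and -0.39 did not. Each batch held 1 aged library, so these differences were given without a test. Batch 3 held no aged+Ri library.

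**Figure D3:**
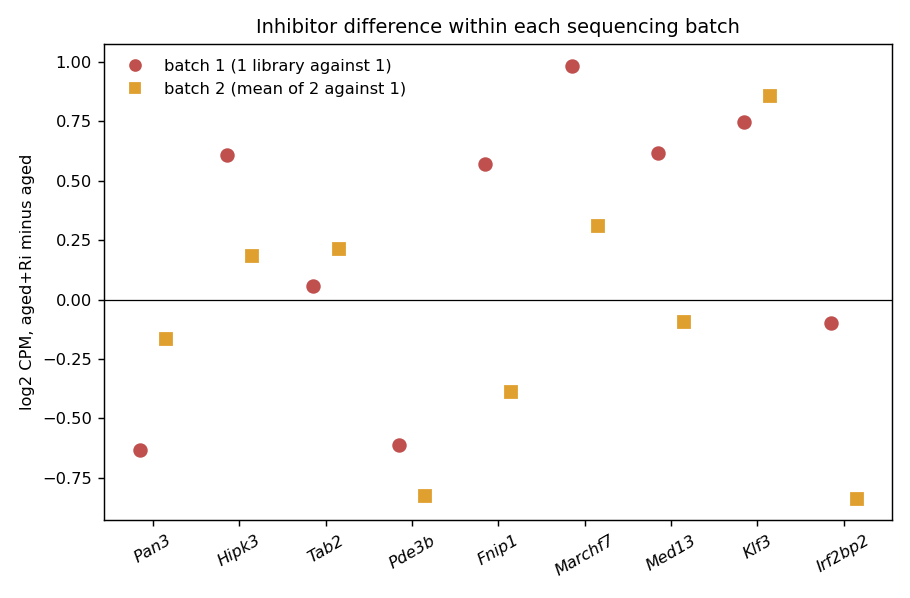
Difference in log2 CPM between aged+Ri and aged libraries (vertical axis) of each of the 9 genes in sequencing batch 1, with 1 library in each group, and in batch 2, with the mean of 2 aged+Ri libraries against 1 aged library. Klf3 is at 0.75 and 0.86 and Pde3b at -0.61 and -0.83, while Med13 and Fnip1 lie on opposite sides of 0 in the batches.

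Aged+Ri against young asks how far treated old cells were from young ones. It shares the young libraries, picked high, with the comparison that chose the genes. The values, counts and p-values of the 9 genes in it therefore lean towards a lower level. Pan3, Pde3b and Irf2bp2 were lower in aged+Ri cells past the threshold of edgeR's quasi-likelihood test, 3 of 9 beside 0.489% of all genes. In 8 of the 9, all but Klf3, every aged+Ri library was below every young one, against 19.9% of all genes. At an unadjusted p under 0.05, 7 of the 9 were lower, against 14.4% of all genes, and the median log2 change was -1.21 over the 9 genes and -0.24 over all genes. DESeq2 called 7 of the 9 lower (6.87% of all genes), with Hipk3, Tab2, Med13 and Fnip1 added, and limma-voom 4 (2.04%), with Fnip1 added. Within batch 2 the changes of all 9 were between -1.89 and -0.50, with Pan3 at -1.52, Pde3b at -1.58 and Irf2bp2 at -1.58, from 2 aged+Ri libraries and 1 young one. All 3 calls were lost without aged+Ri 1 (edgeR adjusted p = 0.117 for Pan3, 0.0814 for Pde3b, 0.112 for Irf2bp2) or without aged+Ri 3 (0.115, 0.101 and 0.154 in that order), and when the fit held only the libraries of those groups. With sequencing batch as covariates, Pan3 was still called, while Pde3b (log2 change -1.93, edgeR adjusted p = 0.0594) and Irf2bp2 (log2 change -1.84, edgeR adjusted p = 0.0751) were not. The call of Irf2bp2 was also lost without any 1 of young 1, aged 1, aged 2, aged 3 and aged+Ri 2, with adjusted p between 0.0517 and 0.0752.

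Markers of other cells differed between libraries, while the aged and young ranges of every summed list given here overlapped. Single markers still separated aged from young libraries in some lists. Without overlap, 3 of 8 macrophage and dendritic markers were lower and 1 was higher in aged libraries. Of 6 megakaryocyte markers 0 were lower and 1 was higher, and of 6 mast cell and basophil markers 1 was lower and 1 higher. The summed level of 12 myeloid markers was between 80.7 and 137 CPM in aged+Ri, 455 and 10209 in aged and 1054 and 3588 in young libraries, with 8 of 12 lower in every aged+Ri than in every aged library and 10 of 12 lower than in every young one. The 7 erythroid markers summed to between 720.2 and 1520 CPM in aged+Ri, 7.57 and 67.8 in aged and 46.5 and 761 in young libraries, and the 14 markers of mature T, NK and B cells to between 158 and 460.3, 129 and 1994, and 989 and 16086 in the same group order. The 13 LT-HSC markers summed to between 1450 and 2589 CPM in aged+Ri, 2242 and 3042 in aged and 2111 and 3678 in young libraries. Cd34 and Flt3, which the sort selected against, together gave 8.70 to 34.6, 30.9 to 75.4 and 29.8 to 96.7 CPM in that order. The 6 megakaryocyte markers summed to between 24.2 and 189, 243 and 541, and 110 and 284 CPM, and the 6 mast cell and basophil markers to between 0 and 5.34, 23.1 and 274, and 2.93 and 102 CPM, again in that order. No marker of these lists was at 0 in all libraries. Their part in the levels of the 9 genes was not tested.

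Exon length, with the exons of all annotated transcripts of a gene merged, moved with the comparison that chose the genes. It is not the length of any single transcript. Exons of the 9 genes covered between 5080 bp (Irf2bp2) and 14955 bp (Pan3), with a median of 9114 bp, against 4504.5 bp over the protein-coding genes tested. Their longest annotated 3′UTR was between 1305 bp (Marchf7) and 3956 bp (Med13), with a median of 2820 bp against 1163 bp. Among protein-coding genes of at least 20 CPM, the median log2 change of aged against young was 0.32, 0.21, 0.04, -0.19 and -0.31 over 5 equal bins of increasing exon length. In aged+Ri against young it was 0.22, 0.32, 0.11, -0.17 and -0.28, and in aged+Ri against aged -0.13, 0.11, 0.11, 0.07 and 0.03. Of the 9 genes, 1 lay in bin 3, 3 in bin 4 and 5 in bin 5. Each had a change below the median of its bin in aged against young, which follows from the choice of the genes. The part of length in these values was not tested.

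**Figure D4:**
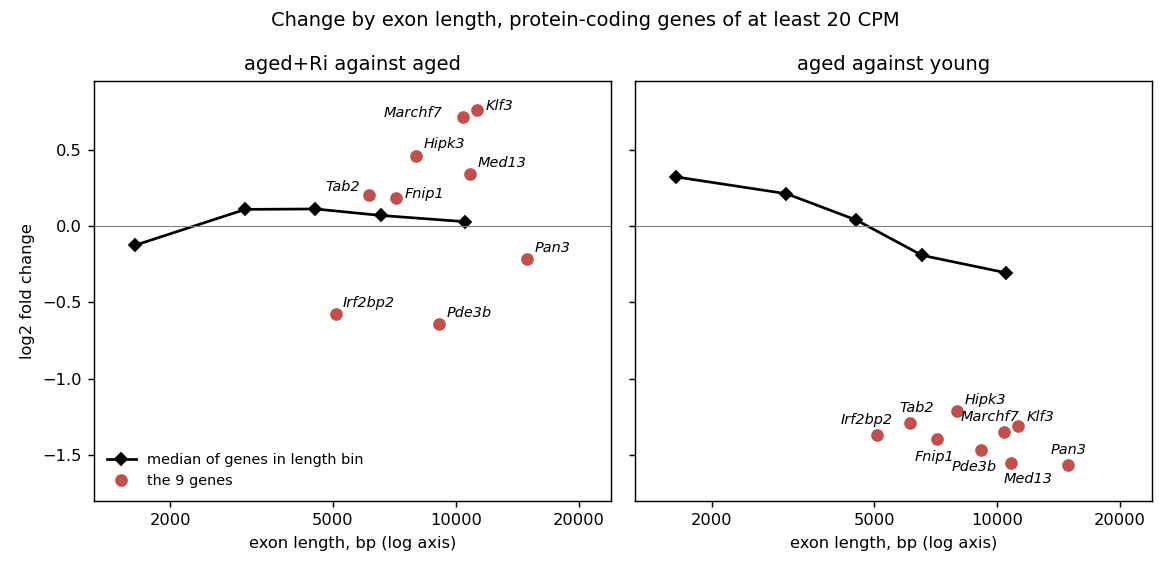
Log2 fold change (vertical axis) against exon length in bp (horizontal log axis) for aged+Ri against aged and aged against young. Black diamonds are medians of protein-coding genes of at least 20 CPM in 5 bins of exon length, and red points the 9 genes. In aged against young the medians run from 0.32 to -0.31 with length. The 9 genes lie below them, between -1.56 and -1.21, which follows from their choice in that comparison. With the inhibitor the medians are between -0.13 and 0.11.

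Lists of genes that act with each of the 9 were examined in the same fit, with the 9 left out: 179 genes, of which 177 were tested. By edgeR's adjusted p, 0 of 177 changed in any comparison, beside 0.0% of all genes in aged+Ri against aged, 1.45% in aged+Ri against young and 0.0331% in aged against young (by DESeq2 0 in aged+Ri against aged, 14 lower and 9 higher in aged+Ri against young, 3 lower in aged against young, and by limma-voom 0, 2 higher and 0, and by edgeR's newer method 0, 1 higher and 0). At an unadjusted p under 0.05 there were 7 lower and 2 higher in aged+Ri against aged, 28 and 16 in aged+Ri against young, and 10 and 5 in aged against young. The shares of all genes past that p were 4.89% lower and 4.24% higher, 14.4% and 9.06%, and 10.1% and 6.09% in the same order. Without overlap of the groups, 8.47% of the 177 were lower and 7.34% higher in aged+Ri than in aged cells, 15.8% and 13.6% in aged+Ri than in young cells, and 9.04% and 6.21% in aged than in young cells. Over all genes these shares were 8.66% and 7.87%, 19.9% and 12.4%, and 16.1% and 8.58% in the same order. The median log2 changes of the 177 were 0.01 in aged+Ri against aged, -0.23 in aged+Ri against young and -0.11 in aged against young, and those of all genes -0.06, -0.24 and -0.13.

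Decay genes other than Pan3 had a median log2 change of -0.28 in aged against young over 34 genes, with Ago2, an effector of microRNA silencing, at 94.1 ± 24.2 CPM in aged and 179 ± 64.8 CPM in young cells, and Btg2, which recruits deadenylases, at 65.3 ± 20.8 and 27.7 ± 12.0 CPM in that order. Tnrc6b, which ties Argonaute proteins to deadenylases, was at 45.5 ± 10.2 CPM in aged+Ri and 84.9 ± 12.3 CPM in aged cells (log2 change -0.90 ± 0.40, edgeR adjusted p = 0.526). Mediator genes other than Med13 were centred at 0.11 in aged against young over 33 genes. Of the 12 genes of CtBP-type repression, Zeb1, a repressor that also binds CtBP, was at 27.7 ± 4.13 CPM in aged and 66.4 ± 5.69 CPM in young cells (log2 change -1.26 ± 0.42, edgeR adjusted p = 0.212), and Ctbp2 at 13.1 ± 6.46 and 45.5 ± 27.7 CPM. Neither passed edgeR's threshold, while DESeq2 called both lower in aged cells (adjusted p = 0.00909 for Zeb1 and 0.0301 for Ctbp2).

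In the list of cyclic nucleotide breakdown and protein kinase A, Prkar1a, a regulatory subunit of the kinase, was at 713 ± 156 CPM in aged+Ri and 389 ± 7.67 CPM in aged cells (log2 change 0.87 ± 0.26, edgeR adjusted p = 0.388). Prkacb, a catalytic subunit, was at 49.9 ± 11.2 and 94.4 ± 21.6 CPM in that order (log2 change -0.92 ± 0.34, edgeR adjusted p = 0.445). In the folliculin, Rag and AMPK list, Lamtor4, a subunit of the Ragulator complex on lysosomes, was at 49.7 ± 13.5 CPM in aged+Ri and 128 ± 19.5 CPM in aged cells (log2 change -1.37 ± 0.41, edgeR adjusted p = 0.388). Rragc, a Rag GTPase gene, was at 93.4 ± 7.36 CPM in aged+Ri and 37.4 ± 2.76 CPM in young cells (log2 change 1.32 ± 0.34, edgeR adjusted p = 0.0687). In the list drawn up for Irf2bp2, Klf2 was at 82.9 ± 35.7 CPM in aged+Ri and 5.76 ± 7.04 CPM in aged cells (log2 change 3.85 ± 1.04, edgeR adjusted p = 0.335). Lmo2, of the same list, was at 320 ± 146 and 732 ± 150.0 CPM in that order (log2 change -1.19 ± 0.40, edgeR adjusted p = 0.419). These genes were named for having the smallest p of their lists, and none passed edgeR's threshold in these comparisons. DESeq2 called Rragc higher in aged+Ri than in young cells (adjusted p = 0.000182). It also called Prkar1a higher (adjusted p = 0.00689) and Prkacb lower (adjusted p = 0.0063) in aged+Ri than in young cells, and Prkar1a was called there by limma-voom (adjusted p = 0.0351) and by edgeR's newer method (adjusted p = 0.0462) as well.

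**Figure D5:**
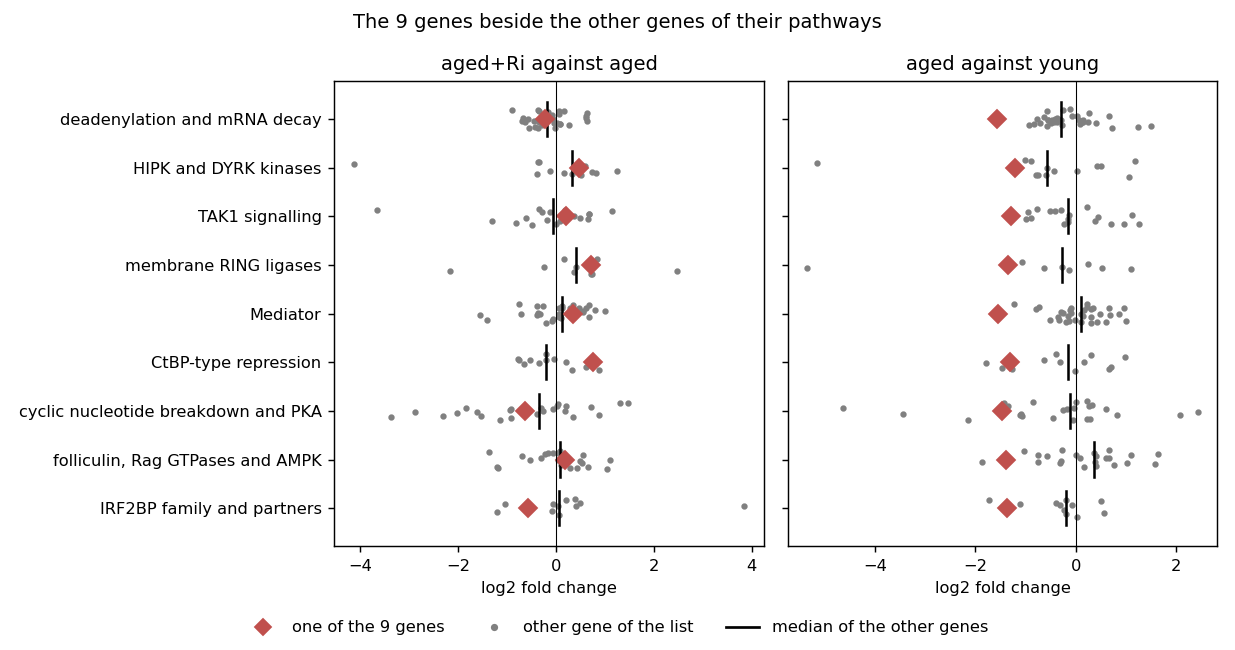
Log2 fold changes (horizontal axis) of the other genes of the 9 pathway lists (grey points, with their median as a bar) beside the one of the 9 genes that each list belongs to (red diamond), in aged+Ri against aged and aged against young. In aged against young each red diamond lies left of the median of its list, a description since that comparison chose the 9 genes. With the inhibitor the red diamonds lie between -0.64 and 0.76, on both sides of their lists' medians.

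Other genes were ranked by how closely they followed the 9 over the libraries. Of 6186 genes with a mean of at least 20 CPM, those most like the mean standardised profile of the 9 (Pearson r of log2 CPM over the 9 libraries, a description in which the young libraries form a cluster of their own) were Smad4 at 0.969, Pum2 at 0.968, Mapk1ip1l at 0.951, and Mast4 and Bcl6 at 0.929. Smad4, the shared mediator of TGF-beta and BMP signals, was at 67.6 ± 10.3 CPM in aged+Ri, 54.3 ± 12.0 CPM in aged and 138 ± 15.4 CPM in young cells. Pum2, an RNA-binding repressor of translation, was at 182 ± 9.70, 174 ± 34.1 and 340 ± 21.6 CPM in that order. Bcl6, a transcriptional repressor, was at 13.8 ± 4.35 CPM in aged+Ri, 16.0 ± 3.44 CPM in aged and 60.1 ± 5.28 CPM in young cells.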

How the data were processed

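RNA sequencing counts of 9 libraries in 3 groups of 3 (aged+Ri, aged and young) were used. Per the submitters' processing notes, reads were handled with STAR 2.7.0, cutadapt 1.18, featureCounts, SAMtools 1.14 and R 4.2.0 and the build was GRCm38. The table of the authors holds estimated counts, since some deposited values are not whole: Pan3, Tab2 and Klf3 have such values in 8 of the 9 libraries, which can come from reads shared between genes, and Pde3b and Fnip1 in 0. Whether strand was used is not given in the sources used here. Depth was between 34358101 and 72503142 counts per library.

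Estimates were rounded to integers first. Genes were kept by edgeR's filterByExpr, scaled by TMM, and fitted with 1 quasi-likelihood model of 3 group means over all 9 libraries (edgeR 4.0.16, limma 3.58.1, DESeq2 1.42.0, R 4.3.3). Tests were two-sided with Benjamini-Hochberg adjustment over 15127 genes and a threshold of 0.05. The steps were tested on simulated counts with known changes. Alternatives were other normalisation, DESeq2, limma-voom with sample weights, edgeR's newer method, other filters, only the groups compared, a replicate block, sequencing batch as covariates, and each library left out. By the labels, sequencing batch 1 held replicate 1 of the aged and aged+Ri groups, batch 2 replicate 2 of each group and aged+Ri 3, and batch 3 replicate 3 of the young and aged groups, while young 1 was spread over batches 1 and 3. Gene positions and lengths come from the GENCODE annotation of GRCm38, in which 21507 of 21939 symbols were matched directly and 324 by a synonym.

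The 9 genes, the pathway and marker lists, the tests and the rules for naming genes were chosen with earlier results of these data known. All 9 are named, with direct partners or relatives, up to 4 genes per list with the smallest unadjusted p in a comparison, and the 5 genes most like the 9 by Pearson r.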

Additional observations from a re-analysis of the deposited data

How the results depend on the processing

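With 3 libraries a group and amplified cDNA of sorted cells, the median biological coefficient of variation was 0.772 over the genes tested and between 0.313 and 0.382 for the 9 genes. In aged+Ri against aged, 0 of the 9 genes were called under each of the 18 alternatives run, while the number of all genes called, 0 in the fit reported, was 321 with DESeq2, 55 with limma-voom, 5 with edgeR's newer method, 11 with no filter, 2 with only the groups compared, 5 with batch as covariates and 0 to 6 with a library left out. In aged+Ri against young, 3 of the 9 genes were called in the fit reported, 7 with DESeq2, 4 with limma-voom and 4 with the stricter filter (each with 1 gene added, Fnip1 and Tab2 in that order), 0 with only the groups compared, 1 with batch as covariates (Pan3) and 0 to 3 with a library left out. All genes called numbered 219 there, 1829 with DESeq2, 626 with limma-voom, 463 with the newer method, 57 with only the groups compared and 18 to 532 with a library left out. In aged against young, which chose the 9 genes, DESeq2 called 9 of them and the other alternatives 0. Of all genes 5 were called there, 744 with DESeq2, 18 with limma-voom, 21 with the newer method, 20 with no filter, 1 with only the groups compared and 2 to 80 with a library left out. The cause of these differences was not tested.

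The sign of the Fnip1 change in aged+Ri against aged turned from 0.18 to -0.021 with batch as covariates, -0.04 without aged replicate 3 and -0.14 without aged+Ri replicate 1. With a library left out it was between -0.14 and 0.32. The calls of Pan3, Pde3b and Irf2bp2 in aged+Ri against young kept their direction in all alternatives, with adjusted p from 4.79e-08 to 0.117, 1.91e-06 to 0.101 and 5.74e-06 to 0.154 in that order. Each alternative used young libraries, picked high for these genes, so the choice of the genes favoured that direction and low p-values. The 3 calls were lost with only the groups compared (0.0699, 0.0705 and 0.0802), and with batch as covariates Pde3b was at 0.0594 and Irf2bp2 at 0.0751. Same-numbered libraries of different groups did not deviate together (correlations between -0.0718 and 0.139), so the numbers were not taken as pairs. With the replicate number as a block, 0 and 3 of the 9 genes were called in aged+Ri against aged and against young, and 2 and 226 of all genes, and in aged against young 0 of the 9 and 6 of all genes. With no filter the median log2 change of all genes was -0.86 in aged+Ri against young and -0.57 in aged against young, as more low genes were tested, against -0.24 and -0.13 in the fit reported.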
